A study of Komagataella pastoris with 4 samples.

Results

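The respiratory chain and the ATP synthase of *Pichia pastoris* (*Komagataella phaffii*) were described from RNA-Seq counts of the strains Dmxr1 and GS115 metabolizing ethanol. Rows of the count table were taken when the authors' protein name, KEGG description or UniRef name named complex I, a type II NADH dehydrogenase, succinate dehydrogenase, the cytochrome bc1 complex, cytochrome c oxidase, an alternative oxidase or the ATP synthase. This gave 104 of 5427 rows after 2 vacuolar ATPase rows were dropped, and the 104 rows carry 103 gene identifiers. All 104 passed the minimum of 5 counts in 2 libraries that left 5425 rows for testing.

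Dmxr1 derives from GS115, carries a zeocin resistance cassette inside MXR1 and is zeocin resistant. MXR1 codes for Mxr1p, a transcription factor with zinc fingers that controls how carbon sources are used. GS115 carries MXR1 and is labelled wild type, and both strains are histidine auxotrophs. Cells were cultured for 14 h in YNBE, a yeast nitrogen base medium with ethanol as carbon source, with 2 libraries per strain. The labels number the libraries 1 and 2, and the study's methods describe duplicate cultures. The p-values thus rest on 2 libraries per strain, with a spread pooled over both strains and moderated towards that of other rows. The study describes retarded growth of Dmxr1 in this medium, and growth and the loss of Mxr1p cannot be told apart here.

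Cells that live on ethanol oxidize it to acetyl-CoA and then in the tricarboxylic acid cycle, and the electrons reach oxygen through the inner mitochondrial membrane. Complex I and the single-protein type II NADH dehydrogenases pass electrons from NADH to ubiquinone, and complex II does so from succinate. Complex III and cytochrome c carry them on to complex IV, which reduces oxygen, while an alternative oxidase can oxidize ubiquinol directly without pumping protons. Complexes I, III and IV pump protons, and complex V, the F1F0 ATP synthase, lets them back to make ATP. *P. pastoris* has complex I, which *S. cerevisiae* lacks, so many complex I rows carry names from the yeast *Yarrowia lipolytica* or from mammals, and roles given below for the other genes are largely known from *S. cerevisiae*. All rows used here lie on the 4 nuclear chromosomes, and the subunits encoded in the mitochondrial genome were not analysed here.

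The libraries held 25524047 and 27988540 counts in Dmxr1, against 24140235 and 29402357 in GS115. The first principal component held 75.7% of the variance over the 4 libraries, and replicate pairs differed by more than sampling noise. The row of MXR1 (ACIB2EUKG772516) had 206 and 258 CPM in Dmxr1, against 287 and 405 CPM in GS115, where CPM, the unit of level used here, is counts scaled to a common library size with TMM factors. It did not pass the test (log2 fold change -0.58, adjusted p = 0.0787), and as reads of a whole row do not separate the disrupted part, it does not check the labels.

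Subunit genes of all 5 complexes were shifted modestly upward in Dmxr1. Of 71 rows for subunits and single-protein enzymes, 66 had a positive log2 fold change (Dmxr1 over GS115), 16 rose and 1 fell in Dmxr1, and the values ran from -0.88 to 0.94. Of all 104 rows, 89 were positive (85.6%, beside 50.5% of all rows tested) and 15 negative. Their median was 0.37, beside 0.0041 over all 5425 rows tested. At an adjusted p of at most 0.05, here called passing the test, 20 of the 104 rows (19.2%) were higher and 3 (2.88%) lower in Dmxr1, against 5.07% and 10.5% of all rows. With a log2 fold change of at least 1 in size as well, here called a call, there was 1 row in each direction, PET100 higher and AIM38 lower, against 0.535% and 3.26% of all rows. Both Dmxr1 libraries lay above both GS115 libraries in 68 rows (65.4%) and below them in 10, while in all rows this held for 31.1% and 31.3%. At an unadjusted p under 0.05, 46 of the 104 rows were higher and 3 lower, against 13.5% and 18.5% of all rows.

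The shift was of like size whichever libraries were set against each other. The median difference in log2 CPM over the 104 rows lay between 0.37 and 0.38 in all 4 pairings of a Dmxr1 with a GS115 library. Between the replicates of a strain, replicate 2 minus replicate 1, it was -0.0096 in Dmxr1 and -0.039 in GS115. Over all rows the 4 pairings gave between -0.0044 and 0.0087. Together the rows took 4.49% and 4.47% of the counts of the Dmxr1 libraries, against 3.02% and 3.32% in GS115, a ratio of 1.41. On TMM-scaled CPM the ratio was 1.33, and on both scales the strains did not overlap.

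The tests of single rows depended on the library left out. The median over the 104 rows stayed between 0.36 and 0.38 when any 1 library was left out, but the number of rows that passed did not. Without Dmxr1 replicate 1, 3 of the 23 rows still passed. Without Dmxr1 replicate 2, 11 still passed, without GS115 replicate 1, 12, and without GS115 replicate 2, 16. AIM38 and PET100 passed in all 4 of these fits, 7 rows in 3, 2 rows in 2, 9 rows in 1 and 3 rows in none. In 20 of the 23 the log2 fold change stayed within 1 SE of its value over all libraries in each of these fits, and in AIM38, NDUFA2 and SDH5 it did not. In DESeq2 all 23 passed. Scaling moved the balance of all rows, since of those that passed 32.7% were higher with TMM, and 45.7% with upper-quartile scaling and likewise with library size alone.

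**Figure D1:**
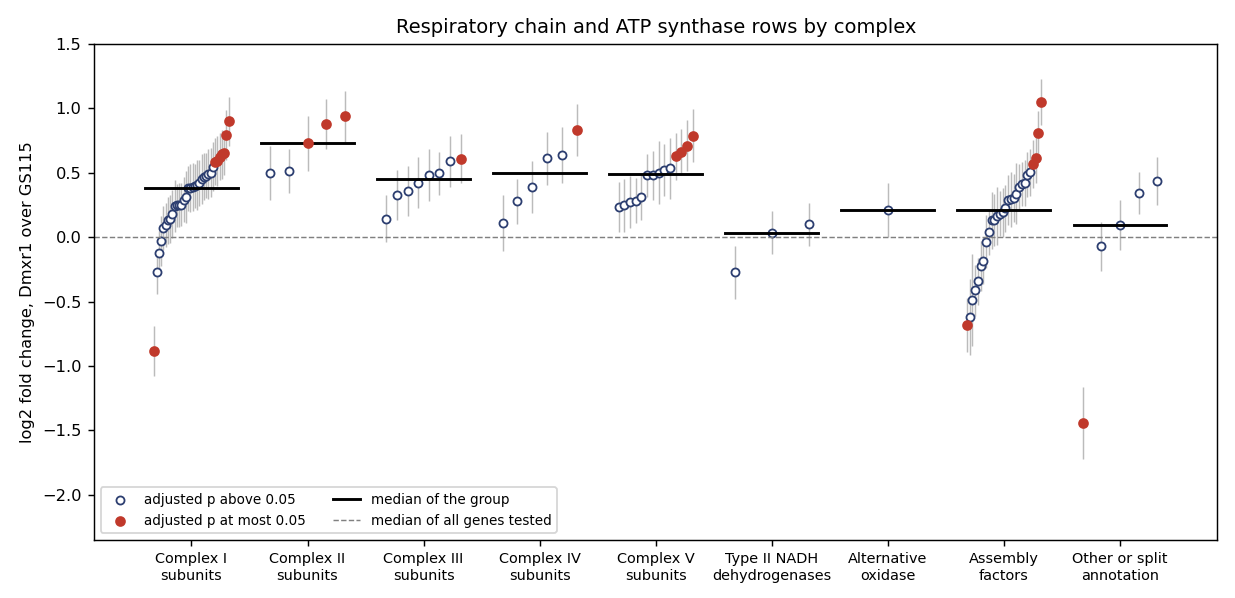
Log2 fold change (Dmxr1 over GS115) of each of the 104 rows, ordered within each group, with standard errors as grey bars. Filled points passed an adjusted p of 0.05, black lines are group medians and the dashed line is the median of all rows tested (0.0041). Medians of the subunits of complexes I to V lie between 0.38 and 0.73, and that of the type II NADH dehydrogenases at 0.034.

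Complex I, the proton-pumping NADH dehydrogenase, had 34 subunit rows, 7 core and 27 accessory. Of the 34, 7 rose (20.6%) and 1 fell (2.94%) in Dmxr1, beside 5.07% and 10.5% of all rows. In the complex 30 were positive (88.2%, beside 50.5% of all rows) and the median log2 fold change was 0.38. All 8 rows that passed code for accessory subunits, but the 2 groups were shifted alike. The median was 0.38 in accessory and 0.39 in core rows. Both Dmxr1 libraries lay above both GS115 libraries in 70.4% and 71.4% of them, beside 31.1% of all rows. The summed level of the 34 rows was 9351 and 9455 CPM in Dmxr1, against 7091 and 7132 CPM in GS115, a ratio of 1.32, with no overlap between the strains.

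NUYM (ACIB2EUKG769789), the counterpart of mammalian NDUFS4 at the NADH-oxidizing arm, had 252 and 219 CPM in Dmxr1, against 139 and 113 CPM in GS115. Both Dmxr1 libraries stood well above both GS115 libraries (log2 fold change 0.90, SE 0.19, adjusted p = 0.00540). NESM (ACIB2EUKG772586), an accessory subunit of the membrane arm, had 647 and 593 CPM in Dmxr1, against 352 and 362 CPM in GS115. The replicates of NESM lay close together and the strains far apart (log2 fold change 0.80, SE 0.19, adjusted p = 0.0125).

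NDUFS6 (ACIB2EUKG769641), a zinc-binding subunit of the arm that extends into the matrix, had 137 and 133 CPM in Dmxr1, against 84.1 and 87.8 CPM in GS115 (log2 fold change 0.65, adjusted p = 0.0160). NDUFA9 (ACIB2EUKG771578), which holds a nucleotide where the arms meet, had 592 and 622 CPM in Dmxr1, against 371 and 407 CPM in GS115 (log2 fold change 0.64, adjusted p = 0.0354). NUZM (ACIB2EUKG771421), an accessory subunit named from *Y. lipolytica*, had 283 and 297 CPM in Dmxr1, against 191 and 186 CPM in GS115 (log2 fold change 0.62, adjusted p = 0.0315). In each of these rows both Dmxr1 libraries were the higher ones. NDUFA8 (ACIB2EUKG772671), a subunit on the intermembrane space side, had 272 and 268 CPM in Dmxr1, against 177 and 182 CPM in GS115, at a log2 fold change of 0.59 and an adjusted p of 0.0391. The mitochondrial acyl carrier protein (ACIB2EUKG770797), which is a complex I subunit and also carries growing fatty acids for lipoic acid synthesis, had 306 and 373 CPM in Dmxr1, against 213 and 236 CPM in GS115 (log2 fold change 0.59, adjusted p = 0.0488). Its Dmxr1 libraries differed more from each other than those of the other 6 rows, with replicate 1 nearer to GS115.

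Of the 7 core subunits, which hold the flavin, the iron-sulfur clusters and the ubiquinone site, 0 passed the test with edgeR and 2 with DESeq2, 2 had an unadjusted p under 0.05 and the median was 0.39. NDUFS1 (ACIB2EUKG770256), the large iron-sulfur subunit and the complex I row with the most reads, had 1012 and 1026 CPM in Dmxr1, against 769 and 874 CPM in GS115 (log2 fold change 0.31, adjusted p = 0.306). NUCM (ACIB2EUKG771144), which with NUKM lines the ubiquinone site, had 532 and 468 CPM in Dmxr1, against 347 and 337 CPM in GS115 (log2 fold change 0.55, adjusted p = 0.0673). NUKM itself (ACIB2EUKG771388) had 125 and 135 CPM in Dmxr1, against 148 and 136 CPM in GS115. The Dmxr1 libraries of NUKM were thus the lower ones, barely below GS115 replicate 2, and the log2 fold change of -0.12 did not pass. At the NADH-binding tip, the flavin subunit NUBM (ACIB2EUKG769525) was at 0.40 (log2 fold change, adjusted p = 0.166) and its partner NUHM (ACIB2EUKG770362) at -0.032 (adjusted p = 0.927). NUCM, NUKM, NUBM and NUHM were named after their values were seen.

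The row that fell carries the description of NDUFA2 and the identifier ACIB2EUKG769174. It had 16.0 and 20.9 CPM in Dmxr1, against 35.9 and 32.3 CPM in GS115 (log2 fold change -0.88, SE 0.19, adjusted p = 0.00686). A second row with this identifier and description had 47.4 and 46.3 CPM in Dmxr1, against 59.1 and 54.1 CPM in GS115, and did not pass (log2 fold change -0.27, adjusted p = 0.276). Each has the same counts as another row of this identifier that carries no description, so the locus is divided or repeated in the annotation and the level of NDUFA2 is uncertain. Leaving out Dmxr1 replicate 1 gave the first of them -0.70 on the log2 scale, with an adjusted p of 0.112. In that fit 0 of the 8 complex I rows passed. Without Dmxr1 replicate 2 and without GS115 replicate 1 the same 3 did, NUYM, NESM and the NDUFA2 row, and without GS115 replicate 2 there were 6. The assembly factors NDUFAF5 (ACIB2EUKG771671) and NDUFAF7 (ACIB2EUKG769639), which modify core subunits in mammals, had log2 fold changes of 0.50 and 0.18, and neither passed.

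The type II NADH dehydrogenases, which feed electrons to ubiquinone without pumping protons, did not show this shift. The external enzyme 1 (ACIB2EUKG768878), facing the intermembrane space, had 515 and 611 CPM in Dmxr1, against 743 and 617 CPM in GS115, so that both Dmxr1 libraries were lower. It did not pass (log2 fold change -0.27, SE 0.20, adjusted p = 0.379). The external enzyme 2 (ACIB2EUKG771161) had 74.4 and 68.6 CPM in Dmxr1, against 62.8 and 70.5 CPM in GS115, and these ranges overlapped (log2 fold change 0.10). The internal enzyme (ACIB2EUKG769945), facing the matrix, had 128 and 130.1 CPM in Dmxr1, against 125 and 127 CPM in GS115, with a log2 fold change of 0.034. With edgeR 0 of the 3 passed, as with DESeq2, and 0 had an unadjusted p under 0.05. Their sum was 717 and 810.0 CPM in Dmxr1, against 931 and 815 CPM in GS115, with Dmxr1 replicate 2 barely below GS115 replicate 2.

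A ratio within each library does not depend on how libraries are scaled, and 6 such ratios of summed CPM were formed, chosen after the single values were known. Since genes differ in length, only the difference of a ratio between the strains can be read. Complex I subunits over type II enzymes gave 13.0 and 11.7 in Dmxr1, against 7.62 and 8.75 in GS115. Both Dmxr1 libraries were higher, by 1.51-fold. Most of the type II sum came from the external enzyme 1, whose log2 fold change of -0.27 did not pass. The denominator of this ratio thus rests largely on that row.

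**Figure D2:**
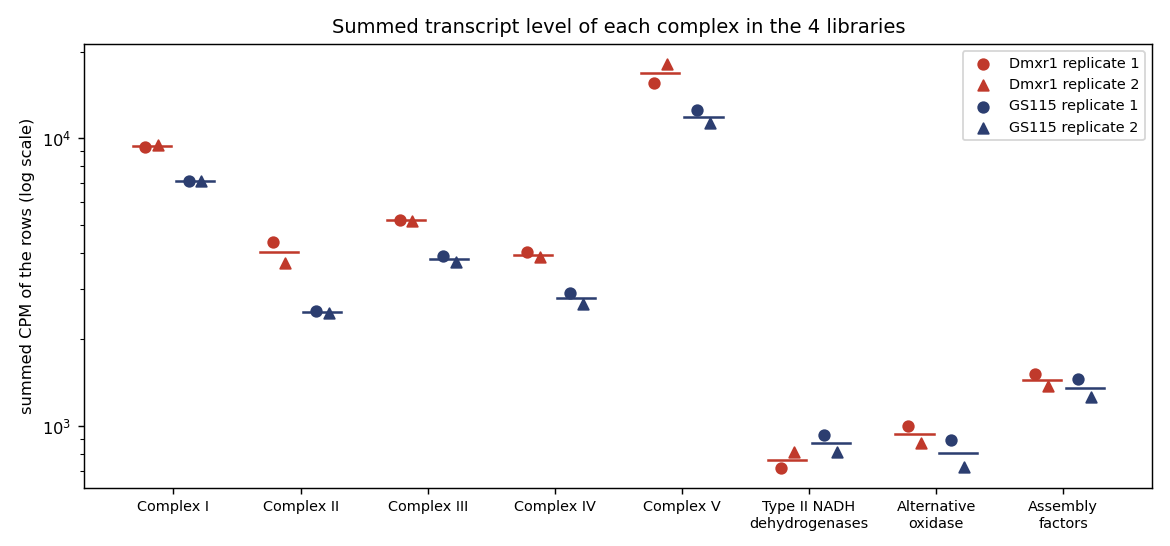
Summed CPM of the subunits of each complex, of the type II NADH dehydrogenases, of the alternative oxidase and of the 28 assembly factors, on a log scale. Points are libraries, red for Dmxr1 and blue for GS115, and short lines are strain means. The strains separate for complexes I to V, with Dmxr1 above, lie close together for the type II enzymes, and overlap for the alternative oxidase and the assembly factors.

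Complex II, succinate dehydrogenase, is both a tricarboxylic acid cycle enzyme and an entry to the chain, and it had the highest median of the 5 complexes. Its 5 subunit rows were all positive, with a median log2 fold change of 0.73, and 3 rose (60%, beside 5.07% of all rows). In all 5, both Dmxr1 libraries lay above both GS115 libraries, which held for 31.1% of all rows. The flavoprotein SDH1 (ACIB2EUKG772257), which oxidizes succinate, had 2239 and 1921 CPM in Dmxr1, against 1204 and 1305 CPM in GS115 (log2 fold change 0.73, SE 0.22, adjusted p = 0.0325). The iron-sulfur subunit SDH2 (ACIB2EUKG770806), which takes the electrons from SDH1, had 1162 and 983 CPM in Dmxr1, against 810.0 and 709 CPM in GS115 and did not pass (log2 fold change 0.50, adjusted p = 0.112).

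The membrane anchors hold heme and bind ubiquinone. SDH3 (ACIB2EUKG769080) had 498 and 413 CPM in Dmxr1, against 249.6 and 245 CPM in GS115 (log2 fold change 0.88, SE 0.19, adjusted p = 0.00753). The first of 2 rows described as SDH4 (ACIB2EUKG769692) had 389.7 and 324 CPM in Dmxr1, against 207 and 166 CPM in GS115 (log2 fold change 0.94, SE 0.20, adjusted p = 0.00602), the highest log2 fold change of any subunit row here. The second (ACIB2EUKG771554) had 64.1 and 57.8 CPM in Dmxr1, against 41.1 and 44.3 CPM in GS115 and missed the threshold narrowly (log2 fold change 0.51, adjusted p = 0.0503). The labels do not say whether reads were split between similar rows, so the division between the SDH4 rows is uncertain.

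Of the 3 assembly rows of complex II, 1 passed the test. SDH5 (ACIB2EUKG770403), which attaches the flavin to Sdh1, had 172 and 161 CPM in Dmxr1, against 321 and 214 CPM in GS115, with GS115 replicate 1 far above the rest. It fell (log2 fold change -0.68, SE 0.21, adjusted p = 0.0386), but passed only without GS115 replicate 2 when a library was left out. Without GS115 replicate 1 it was at -0.36 (adjusted p = 0.303), without Dmxr1 replicate 1 the adjusted p was 0.150 and without Dmxr1 replicate 2 it was 0.146. The assembly factor 1 row (ACIB2EUKG767940) had only 1.68 and 2.02 CPM in Dmxr1, against 2.38 and 3.26 CPM in GS115, and did not pass (log2 fold change -0.62, SE 0.29). The third (ACIB2EUKG772063), an assembly factor by its UniRef name, had 73.6 and 92.0 CPM in Dmxr1, against 80.4 and 80.9 CPM in GS115, and the strains overlapped (log2 fold change 0.038).

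The summed complex II subunits gave 4352 and 3699 CPM in Dmxr1, against 2512 and 2469 CPM in GS115, a ratio of 1.62. Over complex I subunits of the same library they gave 0.465 and 0.391 in Dmxr1, against 0.354 and 0.346 in GS115, which is 1.22-fold with the strains apart. Dmxr1 replicate 1 was the highest library in every one of the 5 subunit rows. Without it, 0 of the 3 rows passed, while SDH3 and SDH4 still passed without Dmxr1 replicate 2 and without GS115 replicate 1, and all 3 without GS115 replicate 2. The median over the complex was 0.61 without Dmxr1 replicate 1 and at most 0.84 when another library was left out.

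Complex III, the cytochrome bc1 complex, moves electrons from ubiquinol to cytochrome c. All 8 subunit rows were positive, with a median log2 fold change of 0.45, and 1 rose (12.5%, beside 5.07% of all rows). In 7 (87.5%) both Dmxr1 libraries lay above both GS115 libraries, beside 31.1% of all rows. QCR8 (ACIB2EUKG768893), a small subunit near the ubiquinol site, had 407 and 385 CPM in Dmxr1, against 276 and 243 CPM in GS115 and was the 1 that rose (log2 fold change 0.61, SE 0.19, adjusted p = 0.0407). When any 1 library was left out its log2 fold change stayed between 0.52 and 0.70, but it did not pass, with adjusted p-values between 0.0529 and 0.249. QCR1 (ACIB2EUKG768185), a large core subunit, had 1191 and 1195 CPM in Dmxr1, against 891 and 888 CPM in GS115 (log2 fold change 0.42, adjusted p = 0.160).

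The redox subunits lay in the same range. The Rieske iron-sulfur protein RIP1 (ACIB2EUKG770240) had 1065 and 1092 CPM in Dmxr1, against 825 and 719.8 CPM in GS115 (log2 fold change 0.48, adjusted p = 0.115). Cytochrome c1, CYT1 (ACIB2EUKG770934), had 719.9 and 722 CPM in Dmxr1, against 556 and 569.9 CPM in GS115 (log2 fold change 0.36, adjusted p = 0.219). Neither passed, although in both the Dmxr1 libraries were the higher pair. QCR9 (ACIB2EUKG772483), a small structural subunit, had the lowest value among the subunits (0.14) and its strains overlapped.

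Among 3 rows that assemble complex III, 1 rose. CBP3 (ACIB2EUKG770522), which helps to make and place cytochrome b, had 69.6 and 55.8 CPM in Dmxr1, against 47.1 and 37.7 CPM in GS115 (log2 fold change 0.57, adjusted p = 0.0482), and passed only without Dmxr1 replicate 2 or GS115 replicate 1, with adjusted p-values of up to 0.404 in the other fits. The row described as a cytochrome c1 heme lyase (ACIB2EUKG769704), which attaches heme to Cyt1, had 57.5 and 57.6 CPM in Dmxr1, against 92.7 and 60.9 CPM in GS115. It did not pass, at -0.41 (adjusted p = 0.160), and rested on GS115 replicate 1, without which it was -0.084. Without GS115 replicate 2 it did pass, at -0.69 (adjusted p = 0.0100).

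Complex IV, cytochrome c oxidase, had 6 nuclear-encoded subunit rows, and its catalytic subunits, encoded in mitochondria, were not analysed here. All 6 were positive, with a median log2 fold change of 0.50, and 1 rose (16.7%, beside 5.07% of all rows). COX6 (ACIB2EUKG771127), a peripheral subunit on the matrix side, had 645 and 558 CPM in Dmxr1, against 368 and 307 CPM in GS115 and was the 1 that rose (log2 fold change 0.83, SE 0.20, adjusted p = 0.0119). Without Dmxr1 replicate 1 it did not pass (adjusted p = 0.134), and in the other 3 such fits it did. COX4 (ACIB2EUKG770360), another matrix-side subunit, had the most reads of the 6, with 1159 and 1291 CPM in Dmxr1, against 965 and 906 CPM in GS115 (log2 fold change 0.39, adjusted p = 0.203).

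COX5 (ACIB2EUKG771356), whose mammalian counterpart is a regulatory subunit that binds ATP, had 896 and 707 CPM in Dmxr1, against 549 and 500.1 CPM in GS115 (log2 fold change 0.61, adjusted p = 0.0562). COX13 (ACIB2EUKG770357), a peripheral subunit, had 829 and 758 CPM in Dmxr1, against 601 and 417 CPM in GS115 (log2 fold change 0.64, adjusted p = 0.0590). Both had the strains apart and missed the threshold. COX12 (ACIB2EUKG772593), on the intermembrane space side, had 312 and 412 CPM in Dmxr1, against 281 and 389 CPM in GS115, and here replicate 1 of each strain was below replicate 2 and the strains overlapped (log2 fold change 0.11).

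The highest and the lowest log2 fold change of the 104 rows were in rows tied to complex IV, though not in its plain subunits. PET100 (ACIB2EUKG769483), a chaperone of complex IV assembly, had 85.1 and 68.2 CPM in Dmxr1, against 38.0 and 36.1 CPM in GS115. Every Dmxr1 library was well above every GS115 library, and this was the 1 row called higher (log2 fold change 1.05, SE 0.18, adjusted p = 0.00156). Without Dmxr1 replicate 1 it was at 0.88 (adjusted p = 0.0235), short of the fold threshold. COA6 (ACIB2EUKG768582), which takes part in copper delivery to Cox2, had 62.4 and 56.8 CPM in Dmxr1, against 36.2 and 31.8 CPM in GS115 (log2 fold change 0.81, adjusted p = 0.00574), and failed the test only without Dmxr1 replicate 1 (adjusted p = 0.0655). COA1 (ACIB2EUKG772245), an early factor of Cox1 assembly, had 25.5 and 21.5 CPM in Dmxr1, against 15.3 and 15.4 CPM in GS115 (log2 fold change 0.61, adjusted p = 0.0396), and passed only without Dmxr1 replicate 2, with an adjusted p of up to 0.311 in the other fits.

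The other 13 assembly rows of complex IV did not pass, and they lay on both sides of 0. The median over all 16 was 0.18, with 11 positive and 5 negative. COX15 (ACIB2EUKG772559), which makes heme A, had a log2 fold change of 0.42, and COX11 (ACIB2EUKG770509), which brings copper to Cox1, one of 0.41. The copper chaperone COX17 (ACIB2EUKG771212) had -0.037, SHY1 (ACIB2EUKG768525), the Surf1 counterpart, -0.23, and COX20 (ACIB2EUKG769765), a chaperone of Cox2, -0.34. COA4 (ACIB2EUKG768802) had the fewest reads of any row, with 1.34 and 0.78 CPM in Dmxr1, against 1.495 and 1.47 CPM in GS115, down to 22 counts in a library, so that its log2 fold change of -0.49 has an SE of 0.36.

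The row called lower, ACIB2EUKG768812, is a cytochrome c oxidase subunit by its UniRef name and AIM38 by its description. AIM38 is the *S. cerevisiae* name of Rcf2, a respiratory supercomplex factor that binds complex IV. It had 326 and 386 CPM in Dmxr1, against 1309 and 628 CPM in GS115. Both Dmxr1 libraries were the lower ones, but the GS115 replicates differed strongly from each other. The log2 fold change was -1.44 (SE 0.28, adjusted p = 0.00348). Without GS115 replicate 1 it was -0.82 (adjusted p = 0.0168), and without GS115 replicate 2 -1.88. A row described as a 70 kDa heat shock protein, with the KEGG name HSP110 (ACIB2EUKG769359), was also highest in GS115 replicate 1. It had 4568 and 4420.1 CPM in Dmxr1, against 10757 and 6391 CPM in GS115 (log2 fold change -0.93, adjusted p = 0.0322). SDH5 and the cytochrome c1 heme lyase row were highest in GS115 replicate 1 too, and what sets this library apart was not tested. The part of the difference between the GS115 libraries in the AIM38 value was not tested. The other row with a split annotation, ACIB2EUKG767913, is subunit 5A by UniRef name and a telomere capping protein by description, and had a log2 fold change of 0.095.

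Complex IV subunits can be set against their electron donor, since cytochrome c (ACIB2EUKG773046) had 1245 and 1263 CPM in Dmxr1, against 1274 and 1164 CPM in GS115. The strains overlapped (log2 fold change 0.04, SE 0.21, adjusted p = 0.914). The ratio of summed complex IV subunits to cytochrome c was 3.22 and 3.07 in Dmxr1, against 2.27 and 2.28 in GS115, a 1.38-fold difference with the strains apart. Cytochrome c heme lyase (ACIB2EUKG769709), which makes holocytochrome c, had a log2 fold change of 0.14 and did not pass either (0 of these 2 passed with edgeR or DESeq2, and 0 had an unadjusted p under 0.05).

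The alternative oxidase (ACIB2EUKG771570), the 1 row of its kind, had 999 and 876 CPM in Dmxr1, against 895 and 722 CPM in GS115. The strains overlapped on this scale and it did not pass (log2 fold change 0.21, SE 0.21, adjusted p = 0.508). Its shares of library counts were 0.105% and 0.088% in Dmxr1, against 0.079% and 0.077% in GS115, without overlap. Summed complex III and IV subunits over the alternative oxidase gave 9.24 and 10.3 in Dmxr1, against 7.60 and 8.83 in GS115. This is a 1.19-fold difference, and the lower Dmxr1 library was close to the higher GS115 library.

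**Figure D3:**
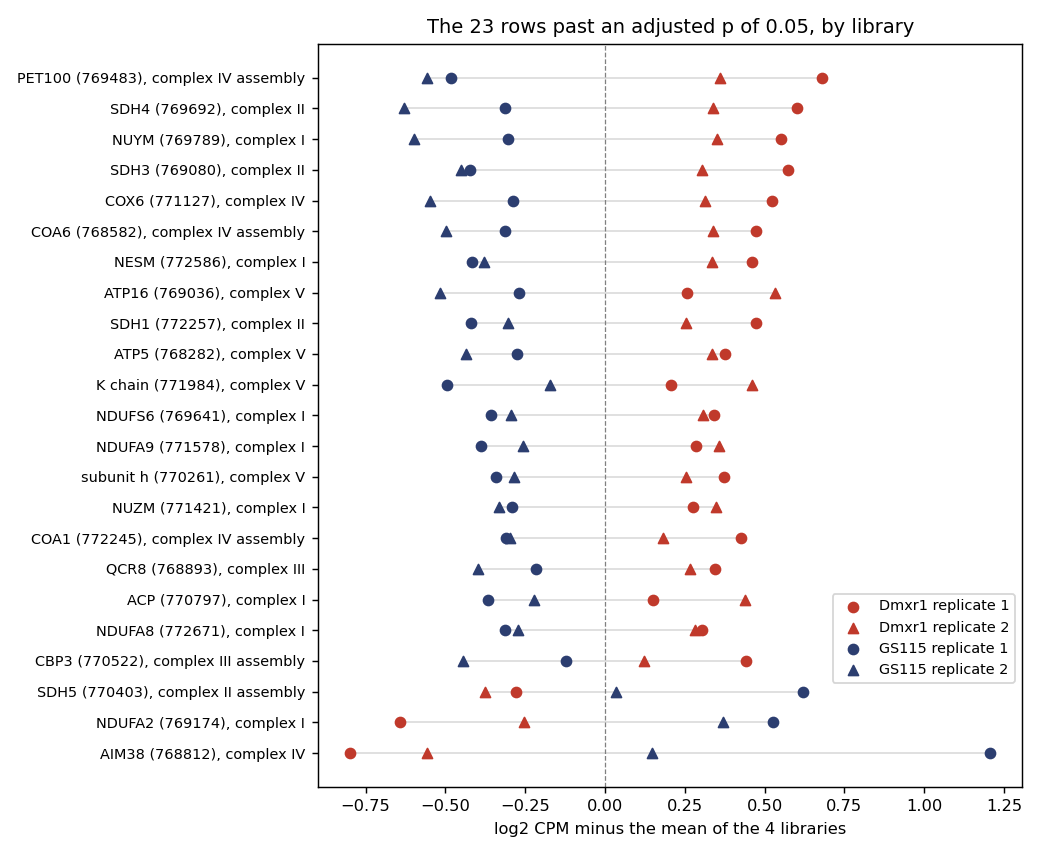
Log2 CPM of each library minus the mean of the 4 libraries, for the 23 rows past an adjusted p of 0.05, with the last 6 digits of the gene identifier. Red symbols are Dmxr1 and blue symbols GS115, circles replicate 1 and triangles replicate 2. In the top 20 rows both Dmxr1 libraries lie right of both GS115 libraries, and in SDH5, NDUFA2 and AIM38 they lie left.

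Complex V, the ATP synthase, turns the proton gradient into ATP. All 14 subunit rows were positive, with a median log2 fold change of 0.49, and 4 rose (28.6%, beside 5.07% of all rows). In 13 of the 14 (92.9%) both Dmxr1 libraries lay above both GS115 libraries, beside 31.1% of all rows. Their sum was 15596 and 18097 CPM in Dmxr1, against 12547 and 11259 CPM in GS115, a ratio of 1.42. Most of this sum came from ATP1 and ATP2, which did not pass, so it mainly describes those rows. Relative to complex I subunits of the same library the sum gave 1.67 and 1.91 in Dmxr1, against 1.77 and 1.58 in GS115, which overlap.

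In the F1 part, which holds the catalytic sites and the rotating central stalk, the median over 4 rows was 0.52. ATP16 (ACIB2EUKG769036), the delta subunit of the stalk, had 576 and 697 CPM in Dmxr1, against 400.1 and 337 CPM in GS115 and rose (log2 fold change 0.79, SE 0.20, adjusted p = 0.0172). ATP2 (ACIB2EUKG769562), the catalytic beta subunit, had 5957 and 7395 CPM in Dmxr1, against 4959 and 4475 CPM in GS115. ATP1 (ACIB2EUKG771397), the alpha subunit, had 4798 and 5623 CPM in Dmxr1, against 3912 and 3289 CPM in GS115. In both the Dmxr1 libraries were the higher pair, but neither passed, with ATP2 at 0.50 (log2 fold change, adjusted p = 0.166) and ATP1 at 0.53 (adjusted p = 0.134). ATP3 (ACIB2EUKG769058), the gamma subunit that turns within the ring of alpha and beta subunits, was at 0.27 and did not pass either (adjusted p = 0.377).

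The stator holds F1 in place against the rotor, and its 4 rows had a median of 0.57. ATP5 (ACIB2EUKG768282), the cap that ties the stator to the top of F1, had 788 and 767 CPM in Dmxr1, against 502 and 449 CPM in GS115 (log2 fold change 0.71, SE 0.20, adjusted p = 0.0246). Subunit h (ACIB2EUKG770261) had 340.3 and 314 CPM in Dmxr1, against 207 and 216 CPM in GS115 (log2 fold change 0.63, adjusted p = 0.0327). Both rose, with replicates close together. Neither subunit d, ATP7 (ACIB2EUKG768302, log2 fold change 0.52), nor subunit b, ATP4 (ACIB2EUKG771514, 0.23), the stalk that crosses the membrane, passed.

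In F0, the membrane part, the 6 nuclear rows had a median of 0.40 and 1 rose. This was a row described as the K chain (ACIB2EUKG771984), a small subunit of the dimer interface, with 64.9 and 77.3 CPM in Dmxr1, against 39.9 and 50.0 CPM in GS115 (log2 fold change 0.66, adjusted p = 0.0234). A second row with the same subunit name (ACIB2EUKG771853) had 70.1 and 75.2 CPM in Dmxr1, against 49.5 and 54.7 CPM in GS115 (log2 fold change 0.48, adjusted p = 0.0659). Subunits e (ACIB2EUKG772038) and g (ATP20, ACIB2EUKG771133), which join ATP synthases into dimers, had log2 fold changes of 0.25 and 0.28, and did not pass.

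Fewer of the 4 rows passed when a library was left out, while each log2 fold change stayed within 1 SE of its value over all libraries (0.63 to 0.79 for ATP5, 0.57 to 0.68 for subunit h). Without Dmxr1 replicate 2, the higher of the Dmxr1 libraries in ATP16, ATP1 and ATP2, 0 of the 4 rows passed, and without Dmxr1 replicate 1 only ATP16 did. Without GS115 replicate 1 ATP5 and ATP16 passed, and without GS115 replicate 2 subunit h and the K chain. The F1 chaperones ATP11 (ACIB2EUKG767918) and ATP12 (ACIB2EUKG769512), which bind free beta and alpha subunits, had log2 fold changes of 0.31 and 0.49 and did not pass. Nor did the inhibitor protein that blocks ATP hydrolysis (ACIB2EUKG768415), at 0.44, or NCA2 (ACIB2EUKG772501), a regulator of the mitochondrial ATP6 and ATP8 messages, at -0.072.

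Across all complexes the 28 assembly factors had a median log2 fold change of 0.21, lower than the 0.42 of the 71 subunits and enzymes. Their summed level was 1513 and 1378 CPM in Dmxr1, against 1459 and 1260 CPM in GS115, with an overlap between the strains. SDH5 alone gave 172 and 161 CPM of this in Dmxr1, against 321 and 214 CPM in GS115. As shares of library counts the sums were 0.159% and 0.139% in Dmxr1, against 0.129% and 0.134% in GS115, without overlap. The overlap thus depends on the scaling. Subunits of complexes I to V over assembly factors gave 25.5 and 29.2 in Dmxr1, against 19.8 and 21.6 in GS115, a 1.32-fold difference in which the strains did not overlap. Of the 28, 4 rose (PET100, COA6, COA1 and CBP3) and SDH5 fell, where 5.07% of all rows rose and 10.5% fell.

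Genes that work beside the complexes were matched by search patterns in 6 lists. Of 60 matches 43 rows were kept and 17 were removed as having another function or place. Among those removed was a potential peroxisomal adenine nucleotide transporter (ACIB2EUKG772680). In the list of carriers of adenine nucleotides and phosphate 1 of 5 rose (20%, beside 5.07% of all rows). This was the major ADP/ATP carrier (ACIB2EUKG772839), which exchanges mitochondrial ATP for cytosolic ADP, with 3164 and 2909.6 CPM in Dmxr1, against 1697 and 1484 CPM in GS115. Both Dmxr1 libraries were far above GS115 (log2 fold change 0.93, SE 0.22, adjusted p = 0.0110), and it failed the test only without Dmxr1 replicate 1 (adjusted p = 0.119). A mitochondrial phosphate carrier (ACIB2EUKG769215), which supplies the phosphate for ATP synthesis, had 1035 and 1051 CPM in Dmxr1, against 904 and 848 CPM in GS115 and did not pass (log2 fold change 0.25). The median of this list was 0.30. With the removed matches it had 9 rows and a median of 0.12, and 1 rose and 1 fell (11.1% each).

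Of 11 rows of coenzyme Q biosynthesis, 1 rose and 1 fell (9.09% each, beside 5.07% and 10.5% of all rows), and the median was 0.18. COQ4 (ACIB2EUKG771235), needed for making ubiquinone, had 189 and 140.4 CPM in Dmxr1, against 88.5 and 98.3 CPM in GS115 (log2 fold change 0.82, adjusted p = 0.00905), and did not pass without Dmxr1 replicate 1 (adjusted p = 0.166). The row that fell (ACIB2EUKG771171) is ubiB by description and a mitochondrial ribosome associating protein by UniRef name. It had 116 and 119 CPM in Dmxr1, against 239.8 and 172 CPM in GS115 (log2 fold change -0.81, adjusted p = 0.0119), and its adjusted p was 0.0948 without Dmxr1 replicate 1 and 0.0789 without GS115 replicate 1.

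Among 7 other donors of electrons to ubiquinone or cytochrome c, 2 rose (28.6%, beside 5.07% of all rows) and the median was 0.38. The beta subunit of the electron transfer flavoprotein (ACIB2EUKG772755), which collects electrons from flavin dehydrogenases, had 105 and 124 CPM in Dmxr1, against 64.2 and 62.6 CPM in GS115 (log2 fold change 0.86, SE 0.17, adjusted p = 0.00397) and passed whichever library was left out. The alpha subunit (ACIB2EUKG769754), with which it forms 1 protein, had 229 and 232 CPM in Dmxr1, against 174 and 153 CPM in GS115 and did not pass (log2 fold change 0.49, adjusted p = 0.0787). Proline oxidase (ACIB2EUKG768053) had 527 and 141 CPM in Dmxr1, against 103 and 132 CPM in GS115, so that a single Dmxr1 library stood apart. Leaving that library out gave 0.26 on the log2 scale, with an adjusted p of 0.620, against a log2 fold change of 1.51 (adjusted p = 0.0176) with it. Cytochrome b2 (ACIB2EUKG772768), which passes electrons of lactate to cytochrome c, had a log2 fold change of -0.25. The electron transferring flavoprotein dehydrogenase (ACIB2EUKG768622), in the same list, was at -0.037 (adjusted p = 0.914), and its strains overlapped.

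Of 11 further assembly factors and translational activators 1 rose (9.09%) and 2 fell (18.2%), beside 5.07% and 10.5% of all rows. SCO1 (ACIB2EUKG772818), which gives copper to Cox2, had 115 and 103 CPM in Dmxr1, against 68.1 and 81.9 CPM in GS115 (log2 fold change 0.54, adjusted p = 0.0441). MBA1 (ACIB2EUKG768001), which docks mitochondrial ribosomes at the inner membrane, had 58.5 and 61.2 CPM in Dmxr1, against 95.1 and 84.3 CPM in GS115 (log2 fold change -0.58, adjusted p = 0.0286). MSS51 (ACIB2EUKG769627), the activator of Cox1 translation, had 87.8 and 97.3 CPM in Dmxr1, against 146 and 122 CPM in GS115 (log2 fold change -0.54, adjusted p = 0.0475). In all 3 the strains were apart, and each passed in 1 of the 4 fits that left a library out, with adjusted p-values of up to 0.317, 0.230 and 0.337. Protoheme IX farnesyltransferase (ACIB2EUKG767979), which starts heme A synthesis ahead of COX15, had 63.0 and 75.3 CPM in Dmxr1, against 125 and 83.6 CPM in GS115 and missed the threshold (log2 fold change -0.59, adjusted p = 0.0564).

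The list of the Hap complex and other regulators lay on the other side of 0. In *S. cerevisiae* the Hap complex, a CCAAT-box binding activator, turns on many genes of the respiratory chain. Of 7 rows 3 fell and 0 rose with edgeR or DESeq2 (0 were higher at an unadjusted p under 0.05), and the median was -0.47. With edgeR the rows that fell were 42.9% of the list, beside 10.5% of all rows. Among the 3 that fell, only the NFYB row below is described as a subunit of the Hap complex itself. A row described as nuclear transcription factor Y subunit A-2 (ACIB2EUKG771191) had 26.7 and 30.8 CPM in Dmxr1, against 64.3 and 41.0 CPM in GS115 (log2 fold change -0.87, SE 0.21, adjusted p = 0.0117). The Hap subunit with the KEGG name NFYB (ACIB2EUKG772566) had 47.3 and 48.3 CPM in Dmxr1, against 84.3 and 64.2 CPM in GS115 (log2 fold change -0.63, adjusted p = 0.0270). The row with the KEGG name HAP1 (ACIB2EUKG770118), described as a peroxisome proliferation regulator, had 83.0 and 92.8 CPM in Dmxr1, against 148 and 131 CPM in GS115 (log2 fold change -0.66, adjusted p = 0.0169).

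In all 3 both Dmxr1 libraries were below both GS115 libraries, and GS115 replicate 1 was the highest library. Without GS115 replicate 1 the first was at -0.51 (adjusted p = 0.123), and without Dmxr1 replicate 1 at -0.77 (adjusted p = 0.0956). Over the fits that left a library out the adjusted p reached 0.186 for NFYB and 0.197 for the HAP1-named row. Of the other rows described as Hap subunits, ACIB2EUKG771190 was at -0.47 (adjusted p = 0.107) and ACIB2EUKG771330 at -0.36 (adjusted p = 0.188). In both the Dmxr1 libraries were the lower pair. The remaining Hap subunit (ACIB2EUKG772356) had a positive log2 fold change, 0.29, and none of these rows passed. CAT8 (ACIB2EUKG769922), a regulator of growth on carbon sources other than sugars, had 79.5 and 80.6 CPM in Dmxr1, against 79.9 and 89.7 CPM in GS115 (log2 fold change -0.083).

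**Figure D4:**
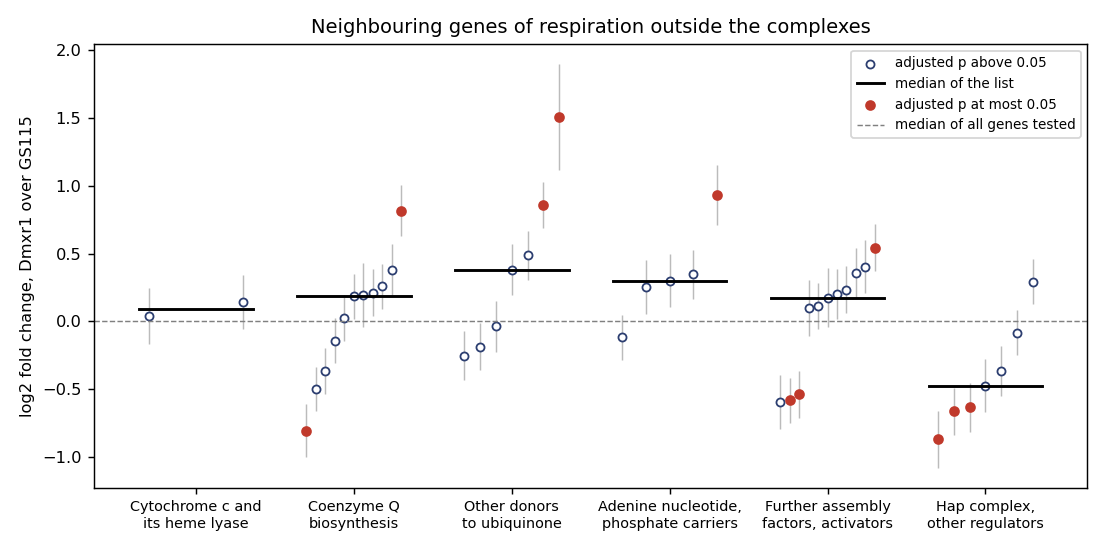
Log2 fold change (Dmxr1 over GS115) of the 43 rows in 6 lists of genes that work beside the complexes, with standard errors as grey bars. Filled points passed an adjusted p of 0.05, black lines are list medians and the dashed line is the median of all rows tested. The regulators have a median of -0.47, and the other 5 lists have medians between 0.091 and 0.38.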

How the data were processed

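RNA-Seq was carried out on 2 libraries each of Dmxr1 and GS115, cultured in YNBE for 14 h. Ribosomal RNA was depleted, per the labels with a kit described for bacteria. The submitters' processing notes name bcl2fastq 2.19.0.316, fastp 0.19.6 for trimming, Bowtie2 for alignment to the *K. phaffii* genome and featureCounts 1.6.4 for counting. Whether counting used strand, and what became of reads with more than 1 alignment, is not given in the sources used here. Antisense, overlapping or near-identical genes may therefore share reads. The authors deposited unnormalized counts of reads for each gene row. Library totals and count levels set the precision: the lowest count of the 104 rows in a library was 22 and the highest 208500.

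A row needed 5 or more counts in 2 or more libraries. The quasi-likelihood test of edgeR 4.0.16 (under R 4.3.3) was run with TMM scaling and strain as the only term, and p-values were adjusted by Benjamini-Hochberg over all 5425 rows. Adjusted p-values are from edgeR except where DESeq2 is named. The standard error (SE) was taken from the log2 fold change and the root of the F statistic, as their quotient. The fit was checked on simulated counts. DESeq2 1.42.0, other scalings and filters, a replicate block and each library left out were alternatives.

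The rows, their grouping by complex, the lists and the tests were chosen with earlier results of these data known. Counts, medians, sums and within-library ratios of a list are descriptions, given with no p. Named were all rows past the adjusted p, the highest, lowest and most-read row of each complex, every type II NADH dehydrogenase and alternative oxidase row, MXR1, and up to 4 rows past the adjusted p in each neighbouring list. Other rows are named as examples, chosen after their values were seen. None (0) of the rows matched the gene table available for this work, which is of another species, so names come from the deposited annotation and no sequences are shown.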

Additional observations from a re-analysis of the deposited data

How the results depend on the processing

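No alternative reversed a reported direction among the rows that passed. The median over the 104 rows lay between 0.36 and 0.44 across 11 alternatives. The medians of the subunits ranged from 0.32 to 0.46 in complex I, 0.61 to 0.84 in complex II, 0.40 to 0.54 in complex III, 0.38 to 0.58 in complex IV and 0.42 to 0.58 in complex V, while the type II NADH dehydrogenases ranged from 0.018 to 0.11 and the assembly factors from 0.16 to 0.28.

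Counts of single rows moved more. The 1 row called higher became 2 with upper-quartile scaling and 2 with library size alone, 0 among subunits and enzymes only, 0 in a test against the fold threshold, and 0 to 3 when a library was left out. The 1 row called lower became 0 among subunits and enzymes only, 0 in the test against the fold threshold, and 0 to 2 when a library was left out. At the adjusted p alone, the 20 higher rows became 35 with upper-quartile scaling, 34 with DESeq2 and 2 to 15 when a library was left out. The 3 lower rows became 1 among subunits and enzymes only and 1 to 5 when a library was left out. A strain left with 1 library is assumed to vary like the other. The cause of these moves was not tested.

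With the replicate number as a block (the replicate block), 7 rows were higher at the adjusted p and 2 lower. The numbers of the labels do not mark a shared culture or day, so the samples share only a number. The deviations of same-numbered libraries correlated at -0.144 over all rows and at 0.194 over the 104 rows. With the crossed pairing, added after the data were seen, 28 rows passed the adjusted p.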
